A study of Homo sapiens with 24 samples.

Results

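The p53 target genes described here are 33 genes that the tumour suppressor p53 is known to activate, in functions from cell cycle arrest and DNA repair to death receptor signalling and metabolism. A gene was measured where the platform annotation gave 1 transcript cluster (the probes an exon array summarises together) its symbol and no other. Of the 33 genes 27 were measured, among 14232 genes in all, and each of the 27 had 1 such cluster. FAS also lies on another cluster, shared with STAMBPL1, which was not analysed here. BTG1, PPM1D, CCNK and AEN lie on clusters that carry several symbols and were not analysed here, and neither were BTG2 and FDXR.

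The cells were MUTZ-5 and MHH-CALL4, 2 established human B cell acute lymphoblastic leukemia lines. Each line was exposed to 500 nM JQ1, an inhibitor of the BET bromodomain proteins, which read acetylated histones, or to its solvent DMSO, for 8 hours. The 4 groups are MUTZ-5 with JQ1, MUTZ-5 with DMSO, MHH-CALL4 with JQ1 and MHH-CALL4 with DMSO, with 3 arrays each. All 4 had the same RPMI medium with serum and antibiotics, and the labels name no other agent and no allele, of p53 or of another gene. Each line is a single cell line, so that differences between the lines cannot be told apart from other differences of their origin. Values are RMA log2 values, in which a difference of 1 log2 unit is a 2-fold difference. A gene was called where its limma p, adjusted by Benjamini and Hochberg's method over 14232 genes, was under 0.05. Separate cultures are not named in the labels, so the p-values rest on the spread of 3 samples a group that may differ only technically.

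In an unstressed cell p53 is kept low by MDM2, a ubiquitin ligase that is itself a p53 target, and by the related protein MDM4. DNA damage and other stresses release p53, which then activates genes that halt the cell cycle, repair DNA, limit growth signalling or, through death receptors and mitochondrial proteins, bring on apoptosis. Many of these genes have other activators as well, and in some of them the p53 binding site lies in the first intron and not upstream of the gene.

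The array medians of all genes lay between 8.46 and 8.57 log2 units. The main axis of the variation within groups held 43.9% of it, and 2 arrays stood at its ends: the third DMSO array of MUTZ-5 (score -0.55) and the third JQ1 array of MHH-CALL4 (0.47). Counts are also given without both. The mean of the 27 targets was 9.49 in MUTZ-5 DMSO replicate 3, against 9.27 and 9.32 in the other arrays of that group. Of 10 B lineage markers 9 were measured, and 8 of them lay above the median of all values in every group. JQ1 lowered 5 and raised 2 of these markers in MUTZ-5, and lowered 5 and raised 0 in MHH-CALL4. Of 8 T and NK cell markers, 6 measured myeloid and 4 measured erythroid markers, 1 of each list lay above that median in every group. Of the T and NK cell markers JQ1 lowered 1 in MUTZ-5 (NKG7, -0.64) and 2 in MHH-CALL4 (NKG7, -0.96, and CD247, -0.74). Of the myeloid markers it changed 0 in MUTZ-5, and in MHH-CALL4 raised CSF3R (0.34) and lowered LYZ (-0.83), and it changed 0 erythroid markers. Beside these marker counts, 13% of all genes were called lower and 9.06% higher in MUTZ-5, and 17.5% and 11% in MHH-CALL4. What part cells of other types have in the members' values was not tested. In bulk samples such as these, fewer cells with a transcript and less transcript per cell cannot be told apart. As a check of drug exposure, MYC differed by -1.32 log2 units in MUTZ-5 and by -2.05 in MHH-CALL4 (limma adjusted p = 5.3e-08 and 8.6e-10).

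The p53 targets did not move one way under JQ1. In MUTZ-5 4 of the 27 rose, 6 fell and 17 did not pass the test, and in MHH-CALL4 6 rose, 10 fell and 11 did not pass. Called genes were 37% of the members against 22% of all genes in MUTZ-5, and 59.3% against 28.5% in MHH-CALL4. By direction, 14.8% of members rose and 22.2% fell in MUTZ-5, against 9.06% and 13% of all genes, and 22.2% rose and 37% fell in MHH-CALL4, against 11% and 17.5%. At least 1 line called 17 members (63%, against 34.1% of all genes), and both lines called 9 (33.3%, against 16.5%). The JQ1 and DMSO arrays did not overlap for 16 members in MUTZ-5 (59.3%, against 32.6% of all genes) and for 20 in MHH-CALL4 (74.1%, against 43.7%). The share called also moved with signal level, whose part was not tested. Among the 7116 genes at or above the median level 35.3% were called in MUTZ-5 and 40.9% in MHH-CALL4. Of the 18 members at that level 7 (38.9%) were called in MUTZ-5 and 12 (66.7%) in MHH-CALL4. The members were chosen with earlier results of these data known, so their shares cannot test for an excess over all genes. The median change of the 27 members was -0.046 log2 in MUTZ-5 and 0.014 in MHH-CALL4, beside 0.0084 and 0.0065 over all genes. The sestrin SESN2, the quinone oxidoreductase TP53I3 and the membrane protein SUSD6 rose in both lines. Called lower in both lines were 6 members (22.2%, against 10.6% of all genes), namely FAS, EDA2R, TNFRSF10A, TNFRSF10B, TRIAP1 and PLK3. Called higher in both were 3 members (11.1%, against 5.74% of all genes), and 0 were called in opposite directions (0.148% of all genes). Without the 2 arrays that stand apart, 6 members rose and 6 fell in MUTZ-5, and 8 rose and 9 fell in MHH-CALL4. Over all genes the calls were then 1886 higher and 1712 lower in MUTZ-5, and 1674 and 2665 in MHH-CALL4. With all arrays they were 1290 and 1848, and 1563 and 2494. Without the 2 arrays 6 members were called higher in both lines, as GADD45A, XPC and SESN1 were added. Without MUTZ-5 DMSO replicate 3 alone there were 5, without SESN1.

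**Figure D1:**
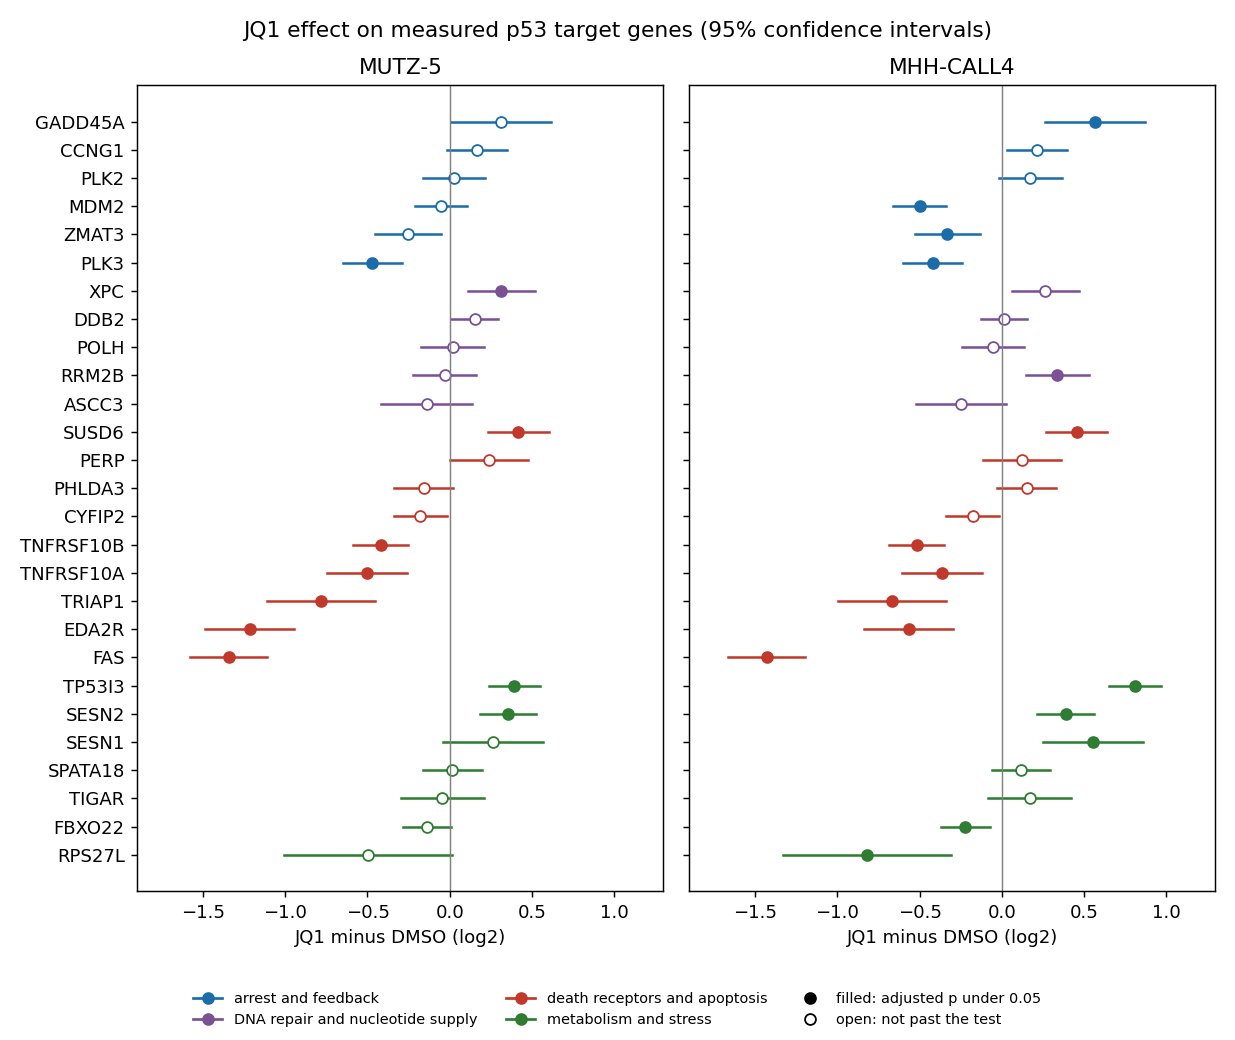
JQ1 minus DMSO in log2 units for the 27 measured p53 targets, grouped by role, in MUTZ-5 (left) and MHH-CALL4 (right). Points are limma estimates with 95% confidence intervals, and filled points passed an adjusted p of 0.05. FAS lies lowest in both lines, at -1.34 and -1.43, and TP53I3 lies highest in MHH-CALL4, at 0.81.

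The upstream sequence of 20 of the 27 measured members was at hand, as the 250 bases before the gene start in RefSeq (GRCh38.p14). CCNG1, PLK2, PLK3, MDM2, ZMAT3, DDB2, XPC, POLH, FAS, EDA2R, PERP, CYFIP2, TRIAP1, SUSD6, SESN1, SESN2, TIGAR, TP53I3, SPATA18 and RPS27L are these members, and GADD45A, RRM2B, ASCC3, TNFRSF10A, TNFRSF10B, PHLDA3 and FBXO22 the others. The sequences of FAS and EDA2R, with the largest falls in MUTZ-5, and of TP53I3 and SESN2, which rose in both lines, are shown 5′ to 3′ on the gene's strand. Capitals mark GGGCGG, the core of Sp1 sites, on either strand (CCGCCC on the other), and TGANTCA. The form TGANTCA is looser than the AP-1 site, TGACTCA or TGAGTCA, as it takes any middle base, and the FAS copy has A there.
FAS (chr10:88990548-88990797, plus strand): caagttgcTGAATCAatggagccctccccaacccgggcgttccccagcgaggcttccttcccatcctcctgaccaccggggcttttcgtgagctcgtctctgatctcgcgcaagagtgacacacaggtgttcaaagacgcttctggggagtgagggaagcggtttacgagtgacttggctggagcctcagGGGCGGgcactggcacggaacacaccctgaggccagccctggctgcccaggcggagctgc
EDA2R (chrX:66639270-66639519, minus strand): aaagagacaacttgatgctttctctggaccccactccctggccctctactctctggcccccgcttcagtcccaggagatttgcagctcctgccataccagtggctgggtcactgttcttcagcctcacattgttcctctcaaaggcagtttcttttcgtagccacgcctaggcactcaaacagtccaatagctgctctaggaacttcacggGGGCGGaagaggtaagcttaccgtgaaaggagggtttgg
TP53I3 (chr2:24084835-24085084, minus strand): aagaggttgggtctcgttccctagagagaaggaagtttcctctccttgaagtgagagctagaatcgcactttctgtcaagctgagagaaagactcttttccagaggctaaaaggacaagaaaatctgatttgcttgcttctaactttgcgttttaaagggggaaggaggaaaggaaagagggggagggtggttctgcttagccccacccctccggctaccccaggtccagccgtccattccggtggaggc
SESN2 (chr1:28259268-28259517, plus strand): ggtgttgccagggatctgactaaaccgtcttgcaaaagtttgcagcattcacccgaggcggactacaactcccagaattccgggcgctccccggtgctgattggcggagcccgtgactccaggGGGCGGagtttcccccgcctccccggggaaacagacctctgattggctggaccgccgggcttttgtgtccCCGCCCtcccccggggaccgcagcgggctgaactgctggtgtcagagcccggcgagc

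The motifs were searched on both strands in these windows and in those of 11386 genes of the array. GGGCGG stood in 16 of 20 member windows (80%), against 58.4% of the array genes' windows, and the median share of G and C was 69.8% in members and 63.2% in array genes. Of the printed windows SESN2 holds 2 copies of GGGCGG, FAS and EDA2R hold 1 each and TP53I3 holds 0. TGANTCA stood in 2 windows (10%, against 4.74%), those of FAS and PERP. The E-box CACGTG, which MYC with its partner MAX binds, stood in 0 of 20 windows, against 7.96% of array genes. The p53 consensus decamer, searched in its degenerate form, stood in the windows of PLK2 and RPS27L (10%, against 4.96%). It was in none of the printed windows, which says only that these letters are not within these 250 bases.

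The first role is that of arrest and feedback, with 10 listed and 6 measured members. In MUTZ-5 1 of the 6 fell and 0 rose (13% and 9.06% of all genes), and in MHH-CALL4 3 fell and 1 rose (17.5% and 11% of all genes). MDM2, the ligase that marks p53 for breakdown, had values of 13.22, 13.17 and 13.07 log2 in MUTZ-5 with JQ1, against 13.13, 13.23 and 13.24 with DMSO. In MHH-CALL4 they were 12.45, 12.33 and 12.31 with JQ1, against 12.82, 12.94 and 12.83 with DMSO. The JQ1 and DMSO arrays overlapped in MUTZ-5, while in MHH-CALL4 every JQ1 array lay below every DMSO array. The limma difference was -0.051 ± 0.074 in MUTZ-5 (adjusted p = 0.74) and -0.50 ± 0.074 in MHH-CALL4 (SE, n = 3 per group, adjusted p = 2e-04). The difference between these effects, MUTZ-5 minus MHH-CALL4, was 0.45 (95% interval 0.22 to 0.67) and did not pass over all genes (adjusted p = 0.053). It passed under 6 of 20 alternatives, among them extended summaries (0.60, adjusted p = 0.0059), median centring (0.45, adjusted p = 0.04) and the fit without MUTZ-5 DMSO replicate 3 (0.47, adjusted p = 0.042).

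PLK3, a polo-like kinase of stress responses, fell in both lines. It had 8.90, 8.84 and 9.01 log2 in MUTZ-5 with JQ1, against 9.41, 9.24 and 9.52 with DMSO, and 9.04, 8.93 and 8.95 in MHH-CALL4 with JQ1, against 9.46, 9.33 and 9.39 with DMSO. No JQ1 array reached a DMSO array of its line. The falls were of 1.39-fold (adjusted p = 0.0011) and 1.34-fold (adjusted p = 0.002). Its relative PLK2 had low values throughout, with group means of 5.26 and 5.23 in MUTZ-5 and 5.60 and 5.43 in MHH-CALL4 for JQ1 and DMSO, and was called in neither line.

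GADD45A, which binds cell cycle and repair proteins and promotes arrest, had 8.76, 8.79 and 8.505 log2 in MUTZ-5 with JQ1, against 8.13, 8.27 and 8.71 with DMSO. In MHH-CALL4 it had 9.56, 9.33 and 9.13 with JQ1, against 8.83, 8.73 and 8.76 with DMSO. The groups were apart in MHH-CALL4, where it rose by 0.57 ± 0.14 (SE, adjusted p = 0.0087), and the DMSO array at 8.71 overlapped the JQ1 arrays in MUTZ-5. There the difference was 0.31 (adjusted p = 0.15), and without that array it was 0.48 (adjusted p = 0.012). With extended summaries the differences were 0.21 in MUTZ-5 (adjusted p = 0.04) and 0.37 in MHH-CALL4 (adjusted p = 0.0011). The RNA-binding zinc finger protein ZMAT3 differed by -0.25 in MUTZ-5 (adjusted p = 0.067) and fell by 0.33 in MHH-CALL4 (adjusted p = 0.016). In MUTZ-5 it was called lower under 4 of 21 alternatives. Among these were cyclic loess (-0.24, adjusted p = 0.013) and the fit without DMSO replicate 2 (-0.33, adjusted p = 0.022). The MHH-CALL4 call of ZMAT3 was lost without DMSO replicate 1 and without JQ1 replicate 3, with a highest adjusted p of 0.069. CCNG1, a cyclin that brings a phosphatase to MDM2, differed by 0.17 in MUTZ-5 (adjusted p = 0.2) and by 0.21 in MHH-CALL4 (adjusted p = 0.075). After median centring CCNG1 passed in MHH-CALL4, at 0.26 (adjusted p = 0.032), and after cyclic loess at 0.29 (adjusted p = 0.0057).

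All 5 listed members of DNA repair and nucleotide supply were measured, and 1 rose and 0 fell in each line, a share near that over all genes (22% called in MUTZ-5 and 28.5% in MHH-CALL4). In MUTZ-5 this was XPC, which recognises bulky DNA lesions, with 8.81, 8.77 and 8.69 log2 with JQ1, against 8.40, 8.31 and 8.62 with DMSO. XPC rose by 0.31 ± 0.094 there (adjusted p = 0.029) and differed by 0.27 in MHH-CALL4 (adjusted p = 0.051). The MUTZ-5 call of XPC was lost under 6 of 21 alternatives, 4 of them without 1 MUTZ-5 array each (JQ1 replicate 1 or 2, DMSO replicate 1 or 2), with a highest adjusted p of 0.11. In MHH-CALL4 a call was gained under 7 of 21, among them the fits without JQ1 replicate 3 (0.35, adjusted p = 0.016) or without MUTZ-5 DMSO replicate 2 or 3 (0.27, adjusted p = 0.042 and 0.024).

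RRM2B, the p53-inducible subunit of ribonucleotide reductase, had 9.84, 9.82 and 9.74 log2 in MHH-CALL4 with JQ1, against 9.38, 9.58 and 9.42 with DMSO. The groups did not overlap there. RRM2B differed by -0.030 in MUTZ-5 (adjusted p = 0.89) and rose by 0.34 ± 0.089 in MHH-CALL4 (adjusted p = 0.012). The difference between these effects was -0.37 and did not pass (adjusted p = 0.24), except after cyclic loess (-0.42, adjusted p = 0.024). DDB2, a sensor of ultraviolet damage, the lesion-bypass polymerase POLH and the helicase ASCC3 were called in neither line. Their differences lay between -0.14 and 0.15 in MUTZ-5 and between -0.25 and 0.014 in MHH-CALL4. After median centring DDB2 was called higher in MUTZ-5 (0.20, adjusted p = 0.028).

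Of the death receptor and apoptosis members 9 of 10 were measured, and in each line 5 fell, 1 rose and 3 did not pass, where 13% of all genes fell and 9.06% rose in MUTZ-5 and 17.5% fell and 11% rose in MHH-CALL4. Their median was -0.42 log2 in MUTZ-5 and -0.36 in MHH-CALL4. The 4 cell surface receptors with a known role in death signalling, FAS, TNFRSF10A, TNFRSF10B and EDA2R, are among the 5 that fell, and each fell in both lines. FAS, the receptor of FAS ligand, had 6.35, 6.19 and 6.21 log2 in MUTZ-5 with JQ1, against 7.60, 7.37 and 7.81 with DMSO. In MHH-CALL4 it had 6.29, 6.22 and 6.44 with JQ1, against 7.67, 7.87 and 7.71 with DMSO. The arrays of the treatments did not overlap in either line, and the gap between them was wide beside the spread within a group.

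FAS fell 2.54-fold in MUTZ-5 (-1.34 ± 0.11 log2, SE, adjusted p = 1.5e-06) and 2.69-fold in MHH-CALL4 (-1.43 ± 0.11, adjusted p = 6.3e-07). Its mean under JQ1 stood at percentile 15.7 of all genes in MUTZ-5 and 16.4 in MHH-CALL4, against 34.6 and 37.3 under DMSO, so that the values under JQ1 are low ones. With extended summaries the differences were smaller, at -0.84 log2 in MUTZ-5 and -0.89 in MHH-CALL4 (adjusted p = 0.00015 and 6.6e-05). The direction and the call of FAS held under all 20 alternatives that gave it a value. Some of these, such as leaving out an array of the other line, could not change its difference.

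EDA2R, a receptor of the ectodysplasin variant EDA-A2, had 8.88, 8.78 and 8.68 log2 in MUTZ-5 with JQ1, against 9.99, 9.78 and 10.21 with DMSO. In MHH-CALL4 it had 7.16, 7.47 and 7.67 with JQ1, against 7.98, 8.03 and 7.98 with DMSO. The groups did not overlap in either line, and the whole range of MHH-CALL4 lay below that of MUTZ-5. The fall was 2.33-fold in MUTZ-5 (-1.22 ± 0.13, adjusted p = 1.4e-05) and 1.48-fold in MHH-CALL4 (-0.57 ± 0.13, adjusted p = 0.0041). The difference of these effects was -0.65 (95% interval -1.03 to -0.27) and did not pass over all genes (adjusted p = 0.11). It passed without MHH-CALL4 JQ1 replicate 1 (-0.79, adjusted p = 0.027).

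The TRAIL receptors TNFRSF10A and TNFRSF10B fell by less. TNFRSF10C and TNFRSF10D, also TRAIL receptors but on the second list described below, did not fall. In MUTZ-5 their means with JQ1 and DMSO were 6.90 and 6.79, and 8.58 and 8.57. In MHH-CALL4 they were 6.87 and 6.46, and 8.57 and 8.45. TNFRSF10C was called higher in MHH-CALL4 under some alternatives. Among them were extended summaries (0.46, adjusted p = 0.021), median centring (0.45, adjusted p = 0.046) and the fit without MHH-CALL4 JQ1 replicate 2 (0.53, adjusted p = 0.031). TNFRSF10B had 10.10, 10.02 and 10.09 log2 in MUTZ-5 with JQ1, against 10.52, 10.35 and 10.60 with DMSO, and 9.75, 9.78 and 9.84 in MHH-CALL4 with JQ1, against 10.26, 10.38 and 10.29 with DMSO. All JQ1 arrays lay below all DMSO arrays of the line. The falls were 1.34-fold in MUTZ-5 (adjusted p = 0.0013) and 1.43-fold in MHH-CALL4 (adjusted p = 0.00022). TNFRSF10A had 7.01, 6.61 and 6.74 in MUTZ-5 with JQ1, against 7.27, 7.32 and 7.27 with DMSO, and 6.68, 6.62 and 6.71 in MHH-CALL4 with JQ1, against 7.09, 6.79 and 7.22 with DMSO. Its groups were also apart, by a small margin in MHH-CALL4. TNFRSF10A fell 1.42-fold in MUTZ-5 (adjusted p = 0.0056) and 1.29-fold in MHH-CALL4 (adjusted p = 0.028), and the MHH-CALL4 call was lost without any 1 of DMSO replicates 1 and 3 and JQ1 replicates 1 and 2 (highest adjusted p = 0.12).

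**Figure D2:**
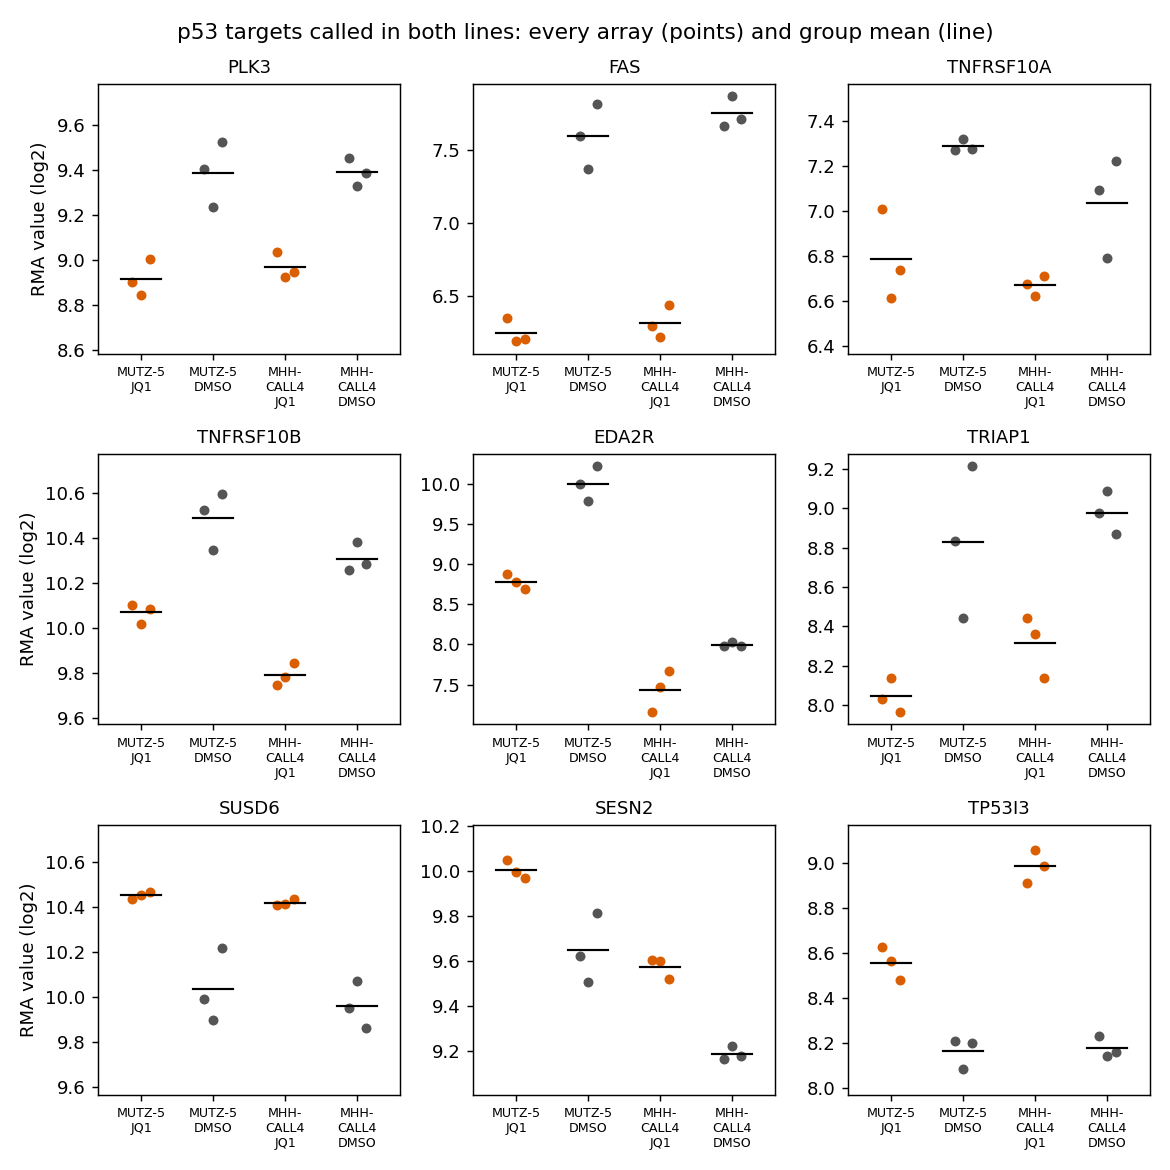
RMA log2 values of the 9 p53 targets called in both lines, with 1 point per array and a line at each group's mean, in the order MUTZ-5 JQ1, MUTZ-5 DMSO, MHH-CALL4 JQ1 and MHH-CALL4 DMSO. Vertical axes differ between panels. In PLK3, FAS, TNFRSF10A, TNFRSF10B, EDA2R and TRIAP1 the 3 JQ1 arrays lie below the 3 DMSO arrays of their line, and in SUSD6, SESN2 and TP53I3 above them.

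TRIAP1 stands apart from the receptors in function, as it encodes a small protein that restrains apoptosis. It had 8.03, 8.14 and 7.96 log2 in MUTZ-5 with JQ1, against 8.83, 8.44 and 9.21 with DMSO, and 8.44, 8.36 and 8.13 in MHH-CALL4 with JQ1, against 8.98, 9.09 and 8.87 with DMSO. The JQ1 arrays were the lower ones in both lines, although the MUTZ-5 DMSO arrays spread over most of a log2 unit. It fell 1.72-fold in MUTZ-5 (adjusted p = 0.002) and 1.59-fold in MHH-CALL4 (adjusted p = 0.0051).

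SUSD6, a sushi domain membrane protein, was the member of this role that rose. It had 10.44, 10.46 and 10.47 log2 in MUTZ-5 with JQ1, against 9.99, 9.90 and 10.22 with DMSO, and 10.41, 10.41 and 10.44 in MHH-CALL4 with JQ1, against 9.95, 10.07 and 9.87 with DMSO. Its JQ1 arrays were tightly grouped and lay above every DMSO array of the line. The rises were 1.34-fold in MUTZ-5 (adjusted p = 0.0029) and 1.37-fold in MHH-CALL4 (adjusted p = 0.0013). PERP, a membrane protein of cell contacts, the AKT repressor PHLDA3 and CYFIP2, a subunit of the actin-regulating WAVE complex, were called in neither line, with differences between -0.18 and 0.24 in MUTZ-5 and between -0.18 and 0.15 in MHH-CALL4. CYFIP2 was called lower in both lines with trend and robust fitting (adjusted p = 0.037 and 0.032). With extended summaries PERP differed by 0.040 in MUTZ-5 (adjusted p = 0.83, against 0.24 with core summaries) and was called higher in MHH-CALL4 (0.25, adjusted p = 0.031, against 0.12). PERP had low values in every group, with means of 5.82 to 6.06 log2.

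Of the metabolism and stress members 7 of 8 were measured. In MUTZ-5 2 rose and 0 fell (9.06% and 13% of all genes), and in MHH-CALL4 3 rose and 2 fell (11% and 17.5% of all genes). TP53I3, a quinone oxidoreductase, had 8.63, 8.56 and 8.48 log2 in MUTZ-5 with JQ1, against 8.21, 8.08 and 8.20 with DMSO, and 8.91, 9.06 and 8.99 in MHH-CALL4 with JQ1, against 8.23, 8.14 and 8.16 with DMSO. The DMSO arrays of the lines overlapped, and the JQ1 arrays of MHH-CALL4 lay above those of MUTZ-5. TP53I3 rose 1.31-fold in MUTZ-5 (adjusted p = 0.0014) and 1.75-fold in MHH-CALL4 (adjusted p = 2.9e-06). The difference of the effects was -0.42 (95% interval -0.64 to -0.19) and did not pass (adjusted p = 0.075), but passed after median centring, 1 of its 19 alternatives (lowest adjusted p = 0.046).

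The sestrins SESN1 and SESN2 restrain the growth kinase complex mTORC1 when amino acids are short or cells are stressed. SESN2 had 10.05, 9.998 and 9.97 log2 in MUTZ-5 with JQ1, against 9.62, 9.51 and 9.82 with DMSO, and 9.60, 9.60 and 9.52 in MHH-CALL4 with JQ1, against 9.17, 9.22 and 9.18 with DMSO. Its groups were apart in both lines, with rises of 1.28-fold (adjusted p = 0.0053) and 1.31-fold (adjusted p = 0.0025). SESN1 had 9.86, 9.66 and 9.41 in MUTZ-5 with JQ1, against 9.28, 9.20 and 9.65 with DMSO, and 9.30, 9.25 and 8.90 in MHH-CALL4 with JQ1, against 8.65, 8.58 and 8.55 with DMSO. The groups of SESN1 overlapped in MUTZ-5, where it differed by 0.26 (adjusted p = 0.24, and 0.40 with adjusted p = 0.019 without the 2 arrays that stand apart), and were apart in MHH-CALL4, where it rose by 0.55 ± 0.14 (adjusted p = 0.0097). The difference of the effects of SESN1 was -0.29 and did not pass (adjusted p = 0.7).

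RPS27L, a ribosomal protein paralogue that can bind MDM2, had 8.45, 7.77 and 7.43 log2 in MUTZ-5 with JQ1, against 8.26, 8.71 and 8.17 with DMSO, and 7.86, 7.43 and 7.39 in MHH-CALL4 with JQ1, against 8.14, 8.74 and 8.28 with DMSO. Its SD of 0.52 in MUTZ-5 with JQ1 was the largest of any measured member in any group. The difference was -0.50 in MUTZ-5 (adjusted p = 0.17) and -0.82 in MHH-CALL4 (adjusted p = 0.019). In MUTZ-5 RPS27L was called lower without JQ1 replicate 1 (-0.78, adjusted p = 0.019) and with extended summaries (-0.34, adjusted p = 0.032). The MHH-CALL4 call was lost under 5 of 20 alternatives: without DMSO replicate 2, JQ1 replicate 2 or JQ1 replicate 3, without the 2 arrays that stand apart (adjusted p = 0.058), and with extended summaries, where the difference was -0.080 (adjusted p = 0.62).

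FBXO22, the substrate-binding part of a ubiquitin ligase, fell by 0.22 in MHH-CALL4 (adjusted p = 0.028), a call lost under 8 of 21 alternatives (highest adjusted p = 0.1), among them the fits without any 1 of MHH-CALL4 DMSO replicates 2 and 3 or any 1 of its JQ1 replicates. In MUTZ-5 it differed by -0.14 (adjusted p = 0.2). TIGAR, which lowers glycolysis, and SPATA18, which acts in mitochondrial quality control, were called in neither line, and SPATA18 had low values, with group means of 5.95 to 6.10 log2.

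A test of the difference between the JQ1 effects, MUTZ-5 minus MHH-CALL4, called 0 of the 27 members, against 1.53% of all genes (0.949% higher and 0.583% lower). At an unadjusted limma p under 0.05, where 10.5% of all genes stood, were 5 members (18.5%): MDM2 (0.45), TP53I3 (-0.42), EDA2R (-0.65), RRM2B (-0.37) and PHLDA3 (-0.31). The sign of the JQ1 effect was the same in both lines for 23 members (85.2%), against 74.5% of all genes, and the exceptions were RRM2B, POLH, PHLDA3 and TIGAR.

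**Figure D3:**
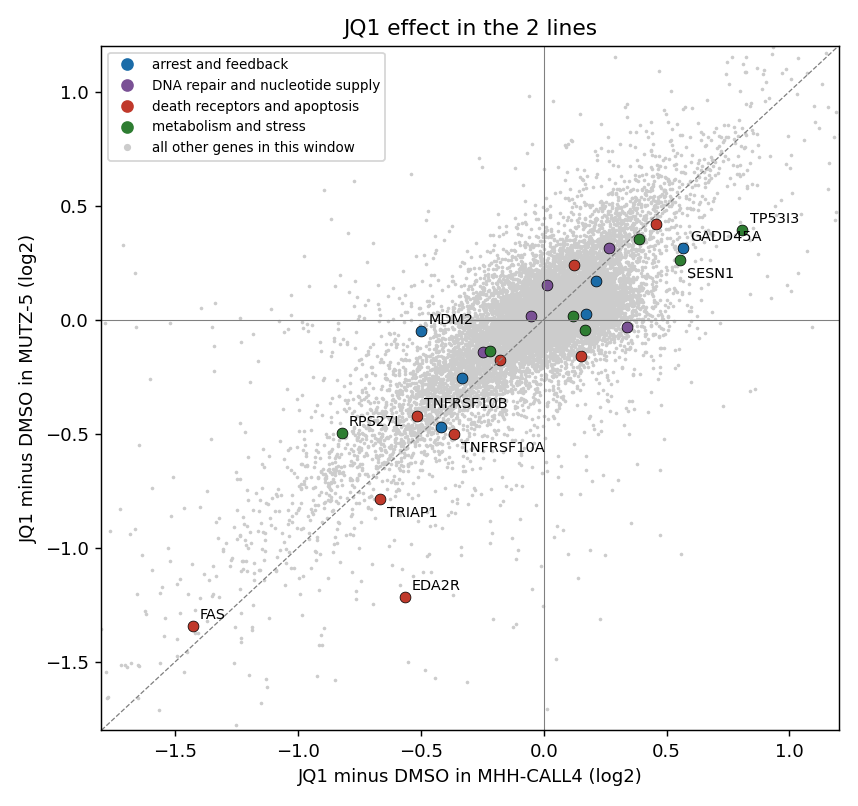
JQ1 minus DMSO in MUTZ-5 (vertical) against MHH-CALL4 (horizontal), in log2 units, with the measured p53 targets coloured by role over the other genes of the array in grey that fall inside this window. The dashed line marks equal effects. MDM2 lies at -0.051 in MUTZ-5 and -0.50 in MHH-CALL4, and EDA2R at -1.22 and -0.57.

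Without JQ1, the lines differed in 9 of the 27 members, or 33.3%, against 23.4% of all genes. Higher in MUTZ-5 were 8 members (29.6%, against 11.9% of all genes) and lower 1 (3.7%, against 11.5%). EDA2R differed most, with 9.99, 9.78 and 10.21 log2 in MUTZ-5, against 7.98, 8.03 and 7.98 in MHH-CALL4, a difference of 1.999 ± 0.13 log2 (SE, adjusted p = 3.6e-08). SESN1 was 1.72-fold higher in MUTZ-5 (adjusted p = 0.00088), the fructose-bisphosphatase TIGAR 1.63-fold (adjusted p = 0.00045), PHLDA3 1.45-fold (adjusted p = 0.00029), SESN2 1.38-fold (adjusted p = 0.00066), DDB2 1.32-fold (adjusted p = 0.00038), MDM2 1.27-fold (adjusted p = 0.0037) and ZMAT3 1.22-fold (adjusted p = 0.034). FBXO22 was 1.36-fold lower in MUTZ-5 (adjusted p = 0.00024).

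TIGAR had 8.72, 8.66 and 9.06 log2 in MUTZ-5, against 8.03, 8.24 and 8.05 in MHH-CALL4, and DDB2 had 11.15, 11.12 and 11.19, against 10.74, 10.81 and 10.69. In these members the arrays of the lines did not overlap. In all 9 called members the highest MUTZ-5 value came from DMSO replicate 3, 1 of the arrays that stand apart. Without both such arrays 7 members were called higher and 4 lower in MUTZ-5, and calls over all genes also grew, to 2071 higher and 2271 lower, against 1695 and 1635 with them. ZMAT3 was then no longer called (0.20, adjusted p = 0.084), and GADD45A (-0.57, adjusted p = 0.0013), FAS (-0.27, adjusted p = 0.049) and TRIAP1 (-0.34, adjusted p = 0.039) were called lower. The ZMAT3 call was also lost without 1 of MHH-CALL4 DMSO replicates 2 and 3 or of MUTZ-5 DMSO replicates 1 and 3 (adjusted p of 0.068 to 0.11), and GADD45A was called lower without MUTZ-5 DMSO replicate 3 alone (-0.57, adjusted p = 0.0039). RRM2B, at 0.26 (adjusted p = 0.052), was called higher under 8 of 20 alternatives, with differences of 0.26 to 0.31 and a lowest adjusted p of 0.0043 with cyclic loess. Of these 8, 4 left out 1 array: MHH-CALL4 DMSO replicate 2, MUTZ-5 DMSO replicate 2, or MUTZ-5 JQ1 replicate 1 or 3. TNFRSF10B was called higher with cyclic loess (0.21, adjusted p = 0.027) and without MUTZ-5 DMSO replicate 2 (0.25, adjusted p = 0.029). These DMSO arrays also serve as controls of the JQ1 comparisons.

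**Figure D4:**
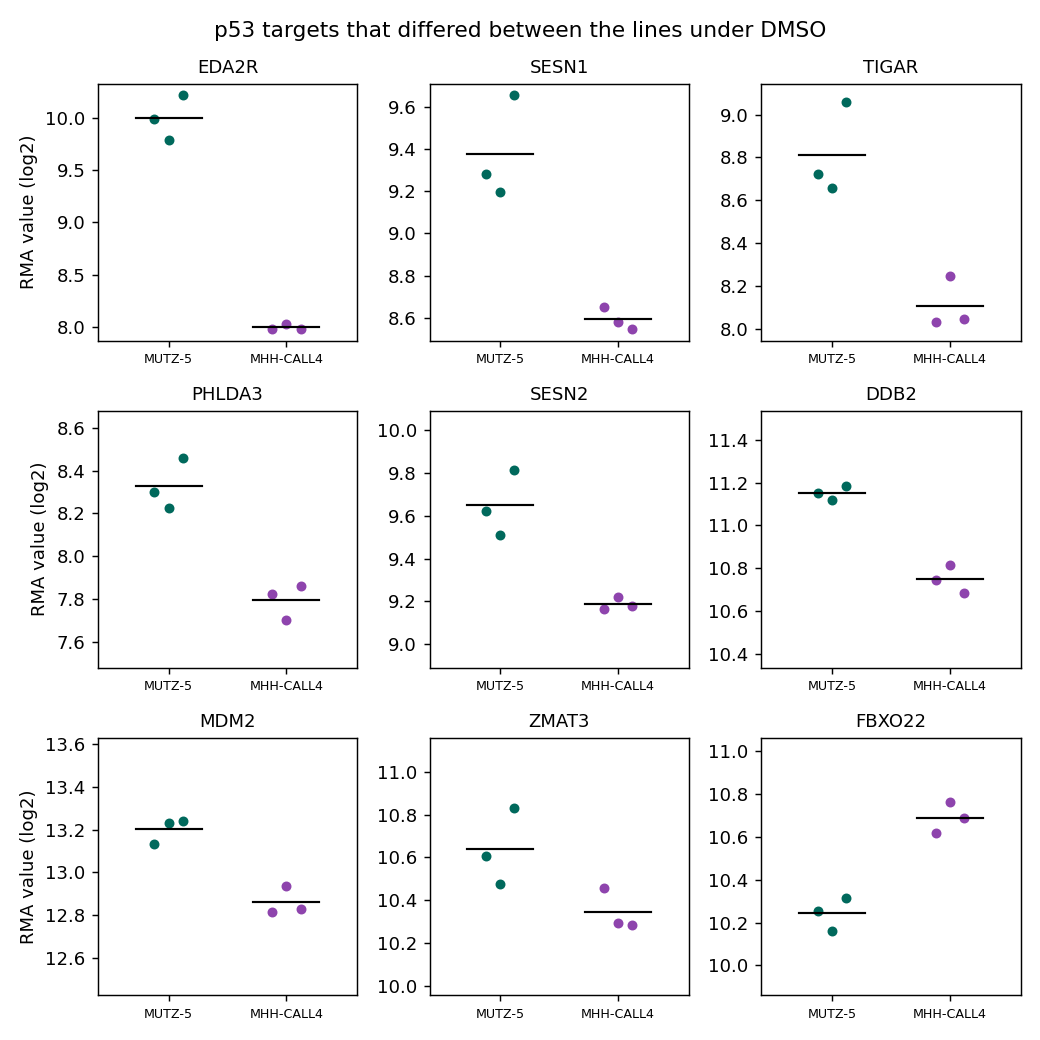
RMA log2 values under DMSO of the 9 p53 targets called between the lines, with MUTZ-5 left and MHH-CALL4 right, 1 point per array and a line at each mean. Vertical axes differ between panels. EDA2R has the widest gap (means of 9.996 and 7.997), and FBXO22 is the member that is lower in MUTZ-5.

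A second list holds 32 further p53 targets, of which 30 were measured. In MUTZ-5 5 rose and 6 fell, and in MHH-CALL4 9 rose and 6 fell, to be read, as for the lists after it, against 9.06% and 13% of all genes in MUTZ-5 and 11% and 17.5% in MHH-CALL4, with medians of 0.039 and 0.056 log2. The antiviral protein TRIM22 fell in both lines, with differences of -1.13 log2 in MUTZ-5 and -0.996 in MHH-CALL4 (adjusted p = 7.9e-07 and 1.8e-06). PMAIP1, which encodes the pro-apoptotic protein NOXA, had 8.99, 8.93 and 8.80 in MUTZ-5 with JQ1, against 9.86, 9.76 and 9.96 with DMSO, and 9.35, 9.38 and 9.30 in MHH-CALL4 with JQ1, against 10.13, 10.34 and 10.10 with DMSO. Its treatments lay far apart in both lines (-0.95 and -0.85, adjusted p = 4e-06 and 7.4e-06). The ubiquitin ligase RNF19B rose by 0.86 in MUTZ-5 and by 0.63 in MHH-CALL4 (adjusted p = 5.5e-05 and 0.00053). SERTAD1, a regulator of cyclin-dependent kinases, rose by 0.82 and 0.85 (adjusted p = 0.013 and 0.0084), with its MUTZ-5 call lost without DMSO replicate 2 (0.57, adjusted p = 0.058).

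CDKN1A, the p21 inhibitor of cyclin-dependent kinases and the classic arrest gene of p53, had 10.04, 9.87 and 9.92 log2 in MUTZ-5 with JQ1, against 10.22, 10.09 and 10.20 with DMSO, and 10.43, 10.27 and 10.25 in MHH-CALL4 with JQ1, against 10.33, 10.24 and 10.29 with DMSO. Its JQ1 arrays lay below the DMSO arrays in MUTZ-5 and overlapped them in MHH-CALL4. The difference was -0.23 in MUTZ-5 (adjusted p = 0.048), a call lost under 13 alternatives, 4 of them without 1 MUTZ-5 array (DMSO replicate 1 or 3, JQ1 replicate 2 or 3, highest adjusted p = 0.19), and 0.032 in MHH-CALL4 (adjusted p = 0.8). The apoptosis gene BAX fell by 0.47 in MUTZ-5 and by 0.51 in MHH-CALL4 (adjusted p = 0.00025 and 1e-04). Other genes of this second list had higher means with JQ1 than with DMSO. APAF1 had 10.24 against 9.80 in MUTZ-5 and 10.52 against 10.11 in MHH-CALL4. TP53INP1 had 12.63 against 12.12 in MUTZ-5 and 11.93 against 11.41 in MHH-CALL4.

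Among 25 genes of p53 regulation 19 were measured, not including p53's own gene. In MUTZ-5 3 rose and 3 fell, and in MHH-CALL4 2 rose and 6 fell. MDM4, which holds p53 inactive together with MDM2, had 10.96, 10.91 and 10.68 log2 in MUTZ-5 with JQ1, against 11.46, 11.47 and 11.61 with DMSO, and 11.20, 11.15 and 10.78 in MHH-CALL4 with JQ1, against 12.004, 11.79 and 11.83 with DMSO. It fell in both lines with no overlap of arrays (-0.66 and -0.83, adjusted p = 0.00085 and 0.00011). PPP1R13B, also called ASPP1, which steers p53 towards apoptosis genes, rose by 1.25 in MUTZ-5 and by 0.99 in MHH-CALL4 (adjusted p = 1.6e-07 and 8.2e-07). The deacetylase SIRT1 rose by 0.64 and 0.46 (adjusted p = 0.00015 and 0.0014), and the methyltransferase SETD7 fell by 0.49 and 0.54 (adjusted p = 0.0061 and 0.0027).

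Of 12 partners in death receptor signalling 9 were measured. In MUTZ-5 3 fell and 1 rose, and in MHH-CALL4 3 fell and 0 rose. CFLAR, the inhibitor of caspase activation at death receptors, fell by 0.55 in MUTZ-5 and by 0.62 in MHH-CALL4 (adjusted p = 0.0028 and 0.001). BID, which carries the receptor signal to mitochondria, fell by 0.63 and 0.59 (adjusted p = 2e-05 and 2.2e-05). The adaptor FADD differed by -0.092 and -0.15 and the initiator caspase CASP8 by -0.12 and -0.11, none of which passed (adjusted p = 0.57, 0.22, 0.51 and 0.44).

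Of 20 genes of nucleotide excision repair, the pathway in which XPC and DDB2 act, 14 were measured. In MUTZ-5 5 fell and 0 rose, and in MHH-CALL4 8 fell and 1 rose, with medians of -0.18 and -0.25 log2. ERCC8, of the branch coupled to transcription, fell by 0.73 in MUTZ-5 and by 0.88 in MHH-CALL4 (adjusted p = 0.0061 and 0.0014), the ligase scaffold CUL4A by 0.50 and 0.61 (adjusted p = 0.0016 and 3e-04), and the nuclease subunit ERCC1 by 0.41 and 0.38 (adjusted p = 0.0011 and 0.0018).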

How the data were processed

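RNA from 12 samples of 2 cell lines was measured on Affymetrix exon arrays, and each array was summarised at core and extended gene level. The authors made the deposited log2 values by RMA in Affymetrix Expression Console, per the series' design text and the submitters' processing notes. Software versions and the genome build are not given in the sources used here. RMA evens out the arrays' distributions, so a shift common to all genes would not be seen, and the number of arrays limits the precision.

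The core values of 14232 genes with 1 symbol were fitted with limma 3.58.1 in R 4.3.3, with 1 mean per group over all 12 arrays, 4 contrasts (JQ1 against DMSO within a line, for both lines, how these effects differ, and the lines under DMSO) and Benjamini-Hochberg adjustment over all genes. Every adjusted p in the text is from this fit or a named alternative. Where several clusters carried a symbol the brightest was taken. The fit was also run on simulated data, for the JQ1 contrast in MHH-CALL4 only. Its noise was independent between arrays, so it cannot show how variation shared by many genes of an array acts on the calls.

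The members and gene lists were chosen with earlier results of these data known. Arrays are printed for members called in a line with a difference of at least 0.5 log2. Those of MDM2, PLK3, SUSD6, SESN2, XPC, RRM2B, TIGAR and DDB2, and of PMAIP1, CDKN1A and MDM4, were added after their values were seen. So were BAX, APAF1, TP53INP1, TNFRSF10C, TNFRSF10D, CDKN1A, FADD and CASP8 as named genes. From each list up to 4 called genes per line with the largest effect could be named. Alternatives were extended summaries, 2 other scalings, a filter on low values, limma with trend and robust fitting, the arrays of 1 line, a replicate block, the mean of clusters, each array left out, and, chosen after seeing the data, both arrays that stand apart left out.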

Additional observations from a re-analysis of the deposited data

Results flagged for a closer look

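LYZ, lysozyme, which served as a myeloid marker here, was, beside MYC (0.73, adjusted p = 0.0011), the gene among those tested here by name whose JQ1 effect differed between the lines by the limma test of the difference itself. The difference, MUTZ-5 minus MHH-CALL4, was 1.03 ± 0.154 log2 (SE, adjusted p = 0.0032). The JQ1 effect was 0.20 in MUTZ-5 (adjusted p = 0.26) and -0.83 in MHH-CALL4 (adjusted p = 7.2e-05), at a mean of 5.95 log2 over all 12 arrays. Its group means with JQ1 and DMSO were 5.77 and 5.58 in MUTZ-5 and 5.80 and 6.63 in MHH-CALL4. The 10th percentile of gene means was 5.72, so LYZ was low in MUTZ-5 also without JQ1. Whether low signal limited a fall there was not tested.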

How the results depend on the processing

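Over 108 results (27 members in 4 comparisons), 80 kept their side of the threshold under every alternative that gave a value, up to 21 each. The main fit called 10 members in MUTZ-5, 16 in MHH-CALL4, 0 for the difference and 9 under DMSO. Most of the 80 were therefore results that were not called and stayed so. Among results called in the main fit or in the alternative, 0 changed sign. Some alternatives, such as trend and robust fitting, leave a difference as it is and could not change its sign. Signs of results called in neither fit were not counted, and some changed. The difference of the JQ1 effects of RPS27L, 0.32 as reported, was as low as -0.26 under an alternative. The difference of the JQ1 effects, with 0 members called, had 1 called higher with extended summaries, median centring, cyclic loess, genes at or above the median level, and limma with trend and robust fitting, and 1 called lower with median centring and cyclic loess. Members called higher in both lines, 3 as reported, were 5 with extended summaries and 6 without both arrays that stand apart. Members lower in MUTZ-5 under DMSO, 1 as reported, were 2 with median centring, cyclic loess, genes at or above the median level, and trend and robust fitting, and 4 without both arrays. Over all genes, those at or above the median level gave 37 called lower for the difference and 1061 called higher under DMSO (fewer genes were tested), and leaving out both arrays gave 222 called higher for the difference. Median centring called 1761 genes higher and 1656 lower in MUTZ-5 and 2162 and 2293 in MHH-CALL4, against 1290 and 1848, and 1563 and 2494, as reported.

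Same-numbered JQ1 and DMSO arrays had correlations of deviations of -0.17, -0.21 and -0.44 in MUTZ-5 and 0.30, 0.070 and 0.23 in MHH-CALL4. Arrays of different number had -0.32 to 0.39 in MUTZ-5 and -0.30 to 0.10 in MHH-CALL4. The numbers were not taken as pairs in the main fit, although in MHH-CALL4 the highest correlations were between same-numbered arrays. With the replicate block 3 members rose and 6 fell in MUTZ-5 and 6 rose and 9 fell in MHH-CALL4. The difference then had 86 genes higher and 50 lower, and the lines under DMSO 895 higher and 793 lower, with 5 members higher, as the calls of MDM2 (0.32, adjusted p = 0.14), ZMAT3 (0.22, adjusted p = 0.38) and SESN1 (0.74, adjusted p = 0.061) were lost.

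Leaving out 1 array at a time gave 3 to 5 members higher and 6 to 7 lower in MUTZ-5, 6 to 7 and 7 to 10 in MHH-CALL4, 0 to 1 and 0 to 1 for the difference, 7 to 10 and 1 to 2 under DMSO, and 3 to 5 higher and 5 to 7 lower in both lines. Over all genes the ranges were 900 to 1673 higher and 1382 to 1930 lower in MUTZ-5, 1007 (without MHH-CALL4 DMSO replicate 2) to 1841 and 1940 to 2734 in MHH-CALL4, 102 to 262 and 55 to 98 for the difference, and 1337 to 1775 and 1233 to 2040 under DMSO. The difference reached 262 without MUTZ-5 DMSO replicate 3 and 55 without MUTZ-5 JQ1 replicate 2. The cause of these changes was not tested. Low values, as in PLK2, PERP and SPATA18, limit what the arrays can show.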
